A study of Mus musculus with 24 samples.

Results

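The microRNA rows of a mouse gene array were followed through the differentiation of embryonic stem cells toward heart cells and through the growth of the heart. They were all rows of the gene-level table whose only platform gene symbol was Mir or Mirlet with a number, 305 rows of 35556. Of these, 298 rows read the short precursors of 296 microRNA genes, and 7 rows read the long noncoding host genes Mir17hg, Mir99ahg, Mir670hg and Mir100hg, whose symbols also fit the rule. Another 61 rows with a microRNA symbol carried a second gene symbol as well and were left out, among them those of Mir133b, Mirlet7b and Mir22. No row carried a symbol of the Mir290 to Mir295 cluster of ES cells, so that group of the rule had no member. The 12 RNA samples formed 6 groups of 2 arrays. They were ES cells at day 0, embryonic bodies (EB, aggregates of differentiating ES cells) at day 7 and cardiac bodies (CB, later cultures that contain heart muscle cells) at day 14 in medium with serum, and whole hearts at E17.5, at postnatal day 1 (P1) and in adults, with no strain, sex or cell line given. The labels do not say whether replicates came from separate cultures or animals, so p-values measure the spread between these samples, which may be technical.

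A microRNA is cut from a longer primary transcript in steps: Drosha and Dgcr8 release a hairpin in the nucleus, Xpo5 and Ran export it, and Dicer1 trims it to the short mature strand that guides an Argonaute protein to messenger RNAs. The bases near its 5′ end, the seed, do most of the pairing, and microRNAs with the same seed form a family. Many microRNA genes lie in introns of protein-coding genes or in clusters that are transcribed as a unit. The array labels cDNA of long RNA and a precursor row is assigned to the span of a short hairpin, so a signal can come from the primary transcript, the host gene's pre-messenger RNA or the hairpin. Mature microRNA was not measured. The array cannot tell these forms apart, and in RNA from bulk samples fewer cells of a type and less RNA per cell cannot be told apart either.

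The mature sequences of the families that the results turn on are given here from RefSeq (GRCm38.p6), with the seed, bases 2 to 8, in capitals. Of the 296 precursor genes, 270 had a mature sequence in that set and 258 a hairpin, and the precursors were 61 to 112 bases long with a median of 84.5. The Mir302, Mir17 and Mir106a products show how far the embryonic families share their seeds, since AAGUGCU and AAAGUGC both hold AAGUGC. The record of miR-302c starts 1 base later than those of miR-302b and miR-302d.
miR-302b-3p: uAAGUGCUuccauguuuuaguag
miR-302c-3p: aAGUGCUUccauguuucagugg
miR-302d-3p: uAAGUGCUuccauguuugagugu
miR-17-5p: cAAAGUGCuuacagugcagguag
miR-20a-5p: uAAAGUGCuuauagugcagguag
miR-106a-5p: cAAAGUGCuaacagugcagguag
miR-363-3p: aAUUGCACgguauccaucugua
miR-130a-3p: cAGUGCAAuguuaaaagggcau
miR-301a-3p: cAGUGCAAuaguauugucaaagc
miR-15b-5p: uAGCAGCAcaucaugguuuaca
miR-16-5p: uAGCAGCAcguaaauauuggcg

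The muscle and let-7 products below are shown because their rows differed in pattern while their seeds are shared or nearly shared. The seeds of miR-208a and miR-499 both begin with UAAGAC, and let-7c and let-7f have the same seed. That of miR-382 stands for the chromosome 12 cluster, of which it had the largest fall in CB against EB.
miR-208a-3p: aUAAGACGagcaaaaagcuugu
miR-499-5p: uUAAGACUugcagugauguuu
miR-206-3p: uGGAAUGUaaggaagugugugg
let-7c-5p: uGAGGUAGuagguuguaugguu
let-7f-5p: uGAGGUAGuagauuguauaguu
miR-382-5p: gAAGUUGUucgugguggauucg
The Mir208a hairpin that the row reads lies at chr14:54949060-54949142 on the minus strand, and the capitals mark its mature 3′ arm.
Mir208a: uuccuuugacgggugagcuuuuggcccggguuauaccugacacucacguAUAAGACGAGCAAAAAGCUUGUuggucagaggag

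Most microRNA rows gave a low signal, which on an array is not an amount that can be set against that of another probe. The median log2 signal over all arrays and member rows was 4.41, against 6.11 over all 21789 rows with a single symbol. The series median of 5.67 was reached by the mean of at least 1 group in 114 of the 305 rows (37.4%), against 67.0% of all such rows. Group means ranged over at least 1 log2 unit in 109 rows (35.7%), against 50.6% of all rows. Array medians lay between 5.61 and 5.76, and values are log2 signals throughout. Cardiomyocyte markers followed the labels of the groups, while ES cell markers were high in CB as well as in ES cells. By the test given below, all 8 ES cell markers were higher in CB than in EB, and 5 were lower in CB than in ES cells. Their part in the changes of microRNA rows in culture was not tested. The median of 8 ES cell markers was 11.11 in ES cells, 8.39 in EB and 10.44 in CB, and between 4.7 and 4.82 in hearts, and that of 11 cardiomyocyte markers was 11.83 or more in CB and hearts and 5.44 or less in ES cells and EB. The number of arrays limits the precision.

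Changes are differences of group means on the log2 scale, with the standard error of a limma fit over all rows, and calls are adjusted p-values under 0.05, by Benjamini-Hochberg over all 21789 rows of a comparison. By this test 41 microRNA rows were higher and 1 was lower in EB than in ES cells (13.8% of rows, against 20.3% of all rows). In CB against EB 3 were higher and 32 lower (11.5%, background 11.4%, of which 5.33% higher and 6.04% lower), and in CB against ES cells 9 were higher and 2 lower (3.61%, background 9.67%, of which 6.17% higher and 3.5% lower). In hearts, 7 rows were higher and 2 lower at P1 than at E17.5 (2.95%, background 4.81%, of which 1.98% higher and 2.83% lower). Adult hearts had 16 higher and 58 lower rows than P1 hearts (24.3%, background 30.6%, of which 15.3% higher and 15.2% lower), and 18 higher and 46 lower rows than E17.5 hearts (21%, background 36.3%, of which 17.8% higher and 18.4% lower). CB had 17 higher and 21 lower rows than E17.5 hearts (12.5%, background 23.8%, of which 12% higher and 11.8% lower). The share called was thus close to that of all rows in CB against EB and below it in the other 6 comparisons. This comparison depended on signal level. Among rows below the series median in every group, 13.8% of precursor rows and 3.56% of all rows were called in EB against ES cells. Among rows at or above it in a group the shares were 13.6% and 28.6%. For adult against E17.5 hearts they were 10.6% and 11.6% below it, and 38.2% and 48.5% at or above it. In CB against EB they were 7.98% and 1.75%, and 17.3% and 16.1%. In adult against P1 hearts they were 11.7% and 9.67%, and 46.4% and 40.9%. In P1 against E17.5 hearts they were 0.532% (1 row) and 0.153%, and 7.27% and 7.11%. In CB against EB and in both comparisons with P1 hearts the precursor share was thus higher at both levels. In CB against ES cells and against E17.5 hearts it was higher below the series median and lower at or above it. In EB nearly all calls went 1 way, since 13.4% were higher and 0.328% lower than in ES cells, against 11.9% and 8.42% of all rows. Among precursor rows EB had the highest group mean in 91 of 298, P1 hearts in 72 and adult hearts in 66, while CB had it in 16. Both arrays of a group lay above all other arrays in 14.8% of precursor rows for EB, against 7.85% of all rows. These shares were 7.38% and 4.05% for P1 hearts, 8.05% and 18.2% for adult hearts, and 1.68% and 1.1% for CB. For ES cells they were 1.68% and 11.1%, and for E17.5 hearts 1.01% and 2.02%.

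**Figure D1:**
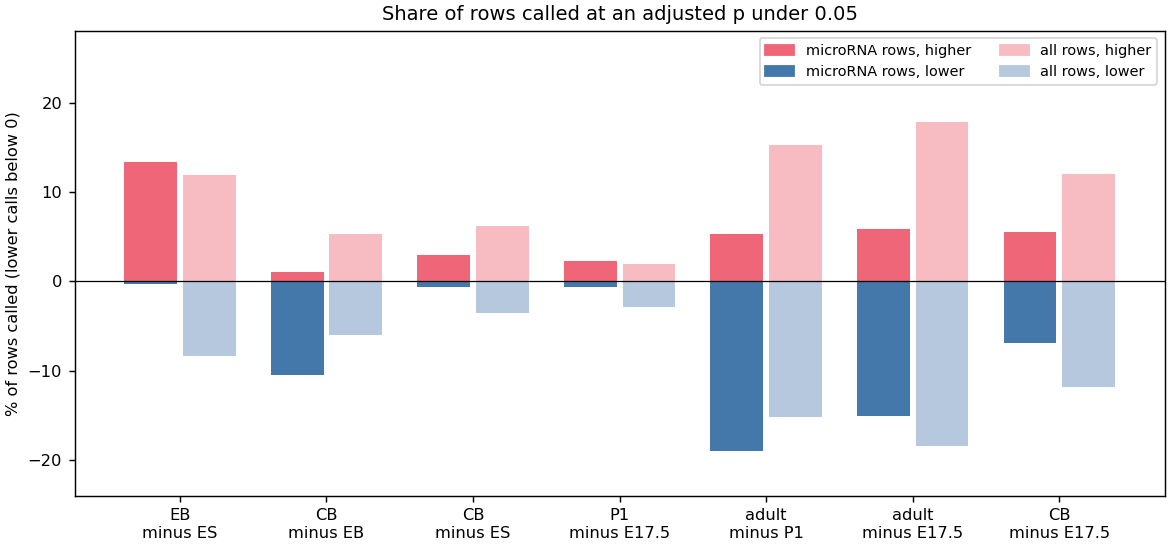
Share of rows called at an adjusted p under 0.05 in each of the 7 comparisons, in % of the 305 microRNA rows (left, dark bars) and of all 21789 rows with a single symbol (right, pale bars); higher calls are drawn above 0 and lower calls below 0. In EB minus ES the microRNA calls lie almost all above 0 (41 and 1), in CB minus EB almost all below it (3 and 32).

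The Mir302 and Mir367 cluster is known for its transcription in pluripotent and early embryonic cells. Its 5 rows lie on chromosome 3 within 0.6 kb, on the strand opposite to the gene Larp7. In EB 4 of the 5 rows were called higher than in ES cells, and in CB 3 were. Mir302c had 2.44 and 2.47 in ES cells, 3.97 and 4.22 in EB and 4.83 and 3.40 in CB, and between 2.36 and 2.73 in the 6 hearts. The EB and CB arrays all lay above every ES cell and heart array, and the ES cells lay within the range of the hearts. Mir302c rose in EB by 1.64 ± 0.33 (adjusted p = 0.00405) and in CB by 1.66 ± 0.33 over ES cells (adjusted p = 0.00747; 0.0581 without ES replicate 1, and lost without ES replicate 2 too).

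Mir302a had closer replicates, with 3.60 and 3.48 in EB, against 2.35 and 2.36 in ES cells, a rise of 1.18 ± 0.18 (adjusted p = 0.000683), and in CB 3.57 and 3.14. Mir302b had 3.29 and 3.15 in EB, against 2.35 and 2.31 in ES cells, and rose by 0.89 ± 0.24 (adjusted p = 0.0224). Mir302d had 3.44 and 3.61, against 2.87 and 2.7, and rose by 0.74 ± 0.22 (adjusted p = 0.0341). These last 2 calls were lost when any of the 4 ES cell or EB arrays was left out. In CB against ES cells 1 of the 5 rows stayed called without ES replicate 1, ES replicate 2 or CB replicate 1, and 5 were called without CB replicate 2. All EB arrays of these 4 rows lay above the ES cell arrays. Mir367, whose mature strand carries another seed, had 3.05 and 2.58 in EB, against 2.04 and 2.37 in ES cells, and was not called. Between CB and EB none of the 5 rows was called by limma, and none had an unadjusted p under 0.05. Their highest value, 4.83, stayed below the series median, so these are differences among dim rows. Larp7 on the other strand changed by 0.22 ± 0.30 in EB (adjusted p = 0.725).

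The Mir17-92 cluster on chromosome 14, known for promoting cell proliferation and growth of the embryonic heart and lung, gave signals near or above the series median in culture. Its 5 measured precursors (Mir17, Mir18, Mir19a, Mir20a and Mir19b-1) lie within 0.7 kb and come from the host transcript Mir17hg. In EB 4 of the 5 were called higher than in ES cells, with a median change over the rows of 0.97 against -0.03 over all rows. In CB 4 were lower than in EB, with a median change of -1.1, and between CB and ES cells none was called (none had an unadjusted p under 0.05). Mir20a had 6.89 and 6.73 in ES cells, 7.58 and 8.25 in EB and 6.61 and 7.19 in CB. Both EB arrays lay above the other 4 culture arrays, while ES cells and CB overlapped. The 4 calls in EB against ES cells were all lost without ES replicate 2 or without EB replicate 2, and those of CB against EB without CB replicate 1, while 1 was kept without EB replicate 2.

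Along heart growth the cluster fell. Mir20a had 5.36 and 5.11 at E17.5, 5.19 and 5.41 at P1, and 3.62 and 3.55 in adults. The E17.5 and P1 arrays overlapped, and both adult arrays lay far below them. Adult hearts were lower than E17.5 hearts by 1.65 ± 0.25 (adjusted p = 0.000252), and all 5 rows were called lower, with a median change of -1.36. Mir18 fell by 1.95 ± 0.31 (adjusted p = 0.000388), with 3.27 and 4.08 in adult hearts, against 6.08 and 5.17 at E17.5. Mir19a had 2.92 and 2.75 in adult hearts, against 4.27 and 4.11 at E17.5 (-1.36 ± 0.23, adjusted p = 0.000646). The host row Mir17hg had 6.52 and 6.78 in EB, against 5.78 and 5.92 in ES cells (0.81 ± 0.26, adjusted p = 0.0461), and was lower in CB than in EB by 1.11 ± 0.26.

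The related Mir106a-363 cluster lies on chromosome X and holds copies of the same families. Here the group means of all 5 rows were higher in CB than in EB, by 0.02 to 1.71, but of these only the rise of Mir363 was called. Mir363 had 4.71 and 4.29 in ES cells, 4.76 and 4.72 in EB and 6.20 and 6.71 in CB, and between 2.84 and 3.43 in the 6 hearts. Both CB arrays lay more than 1 unit above all other arrays, and Mir363 was the only precursor row of which this was true in CB. It rose in CB by 1.71 ± 0.22 over EB (adjusted p = 0.000357) and by 3.39 ± 0.22 over E17.5 hearts (adjusted p = 1.31e-06). Mir106a had 5.15 and 5.76 in CB, against 3.81 and 3.48 in ES cells, a rise of 1.81 ± 0.28 (adjusted p = 0.00132). All 5 rows were higher in CB than in E17.5 hearts, with a median change of 1.32, and 3 of 5 without CB replicate 2 or without E17.5 replicate 1. None of these 5 rows was called between heart stages. CB also had the higher ES cell markers (median 10.44, against 4.73 at E17.5), whose part in this difference was not tested. The third cluster of this family, Mir106b-25 in the helicase gene Mcm7, had no call in EB against ES cells, with changes of -0.11 to 0.19.

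**Figure D2:**
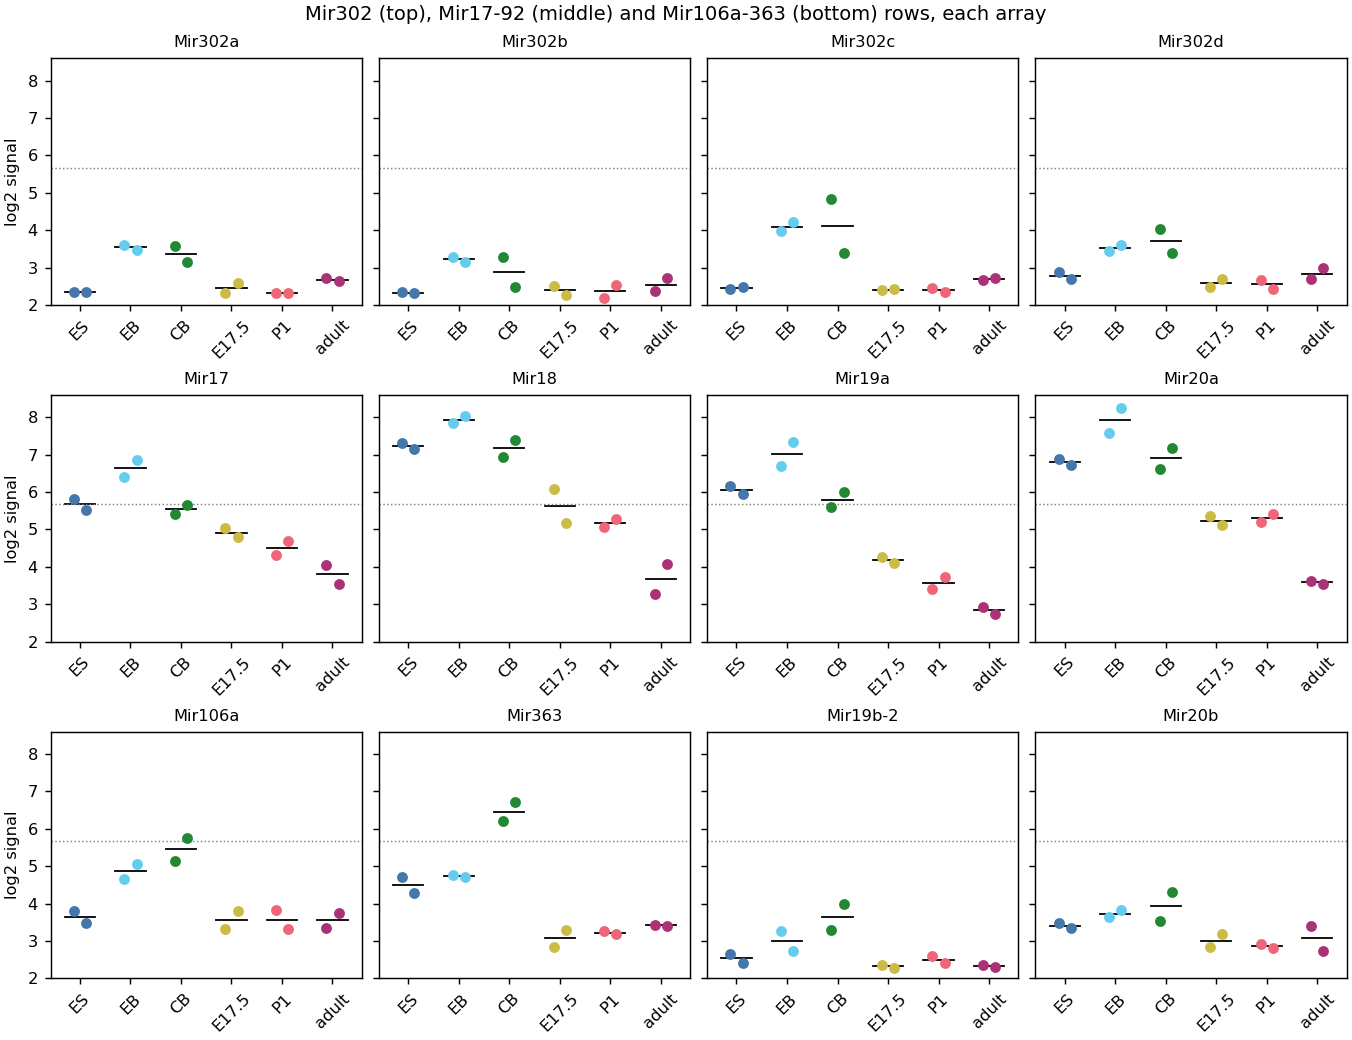
Log2 signal of each array (points) and group mean (bars) for 4 Mir302 rows (top), 4 Mir17-92 rows (middle) and 4 Mir106a-363 rows (bottom); the x axis gives ES cells, EB, CB and hearts at E17.5, P1 and adult age, and the dotted line the series median of 5.67. The Mir302 rows are above ES cells and hearts in both EB arrays, the Mir17-92 rows peak in EB and are lowest in adult hearts, and Mir363 peaks in CB at 6.20 and 6.71.

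The largest genomic group was the cluster of the imprinted Dlk1-Dio3 domain on chromosome 12, where 40 rows lie in a chain of 171.5 kb from Mir673 to Mir369. Maternally transcribed noncoding RNAs, among them Meg3 and Rian, carry these microRNAs. In EB 15 of the 40 rows were called higher than in ES cells and none lower, 37 changes were positive, and the median change was 0.71 (against -0.03 over all rows). In CB 16 of 40 were lower than in EB, with a median change of -0.88, and none was called between CB and ES cells. Mir382 had 6.39 and 5.71 in ES cells, 7.95 and 6.68 in EB and 4.84 and 5.45 in CB. Both EB arrays lay above the other culture arrays, but EB replicate 1 was more than 1 unit above EB replicate 2. Mir382 was higher in EB than in ES cells by 1.26 ± 0.36 (adjusted p = 0.0276) and lower in CB than in EB by 2.17 ± 0.36 (adjusted p = 0.0021).

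Mir541 and Mir323 had the largest rises of the cluster. Mir541 had 5.84 and 4.69 in EB, against 3.36 and 3.69 in ES cells, a rise of 1.74 ± 0.31 (adjusted p = 0.00174). Mir323 had 6.65 and 5.69 in EB, against 4.40 and 4.88 in ES cells, a rise of 1.54 ± 0.28 (adjusted p = 0.00204). The rule that named both rows required EB arrays that did not overlap with the ES cell arrays. In both rows EB replicate 1 was higher than EB replicate 2. In CB against EB the largest falls after Mir382 were those of Mir300 (-1.89 ± 0.36), Mir154 (-1.63 ± 0.24), Mir377 (-1.61 ± 0.30), Mir541 (-1.58 ± 0.31) and Mir411 (-1.54 ± 0.25). Both CB arrays of each lay below both EB arrays, which the rule that named these rows required. The calls of Mir300 and Mir541 were lost without CB replicate 1. In the cluster as a unit 37 of 40 rows were higher in EB replicate 1, by a median of 0.69, while ES cell and CB replicates split 19 to 21 and 20 to 20. The median of 4 measured erythroid markers was 10.02 in EB replicate 1 and 5.87 in EB replicate 2, and Mir144, a red cell microRNA on another chromosome, had 4.01 and 1.98. That of 6 smooth muscle and fibroblast markers was 7.96 and 6.63. Their part in the result was not tested. Without EB replicate 1, 5 rows were called higher in EB than in ES cells and 9 lower in CB than in EB, and without EB replicate 2, 26 and 28. Each ES cell array mattered as well, with 8 calls without ES replicate 1 and 5 without ES replicate 2, and the calls of CB against EB were 7 without CB replicate 1 and 10 without CB replicate 2.

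The long RNAs of the domain were looked up after these values were seen. Meg3 had 11.34 and 10.13 in EB, against 9.52 and 9.78 in ES cells (1.08 ± 0.32, adjusted p = 0.0336), and changed by -1.28 ± 0.32 in CB against EB (adjusted p = 0.024). Rian had 8.52 and 7.73 in EB, against 7.35 and 7.25 in ES cells, and was not called (0.82 ± 0.40, adjusted p = 0.193), though it was lower in CB than in EB by 2.02 ± 0.40. Both were low in adult hearts, where Meg3 had 6.93 and 7.20, against 9.77 and 9.95 at E17.5, and Rian 3.58 and 3.33, against 6.34 and 6.62. Among the microRNA rows 13 of 40 were called lower in adult than in E17.5 hearts and 1, Mir667, was higher (0.52 ± 0.18). Mir300 had 3.13 and 3.51 in adult hearts, against 5.33 and 5.0 at E17.5, a fall of 1.85 ± 0.36 (adjusted p = 0.00165). Leaving out E17.5 replicate 2 left 6 lower calls and leaving out adult replicate 2 left 7. Between P1 and E17.5 none of the 40 was called.

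**Figure D3:**
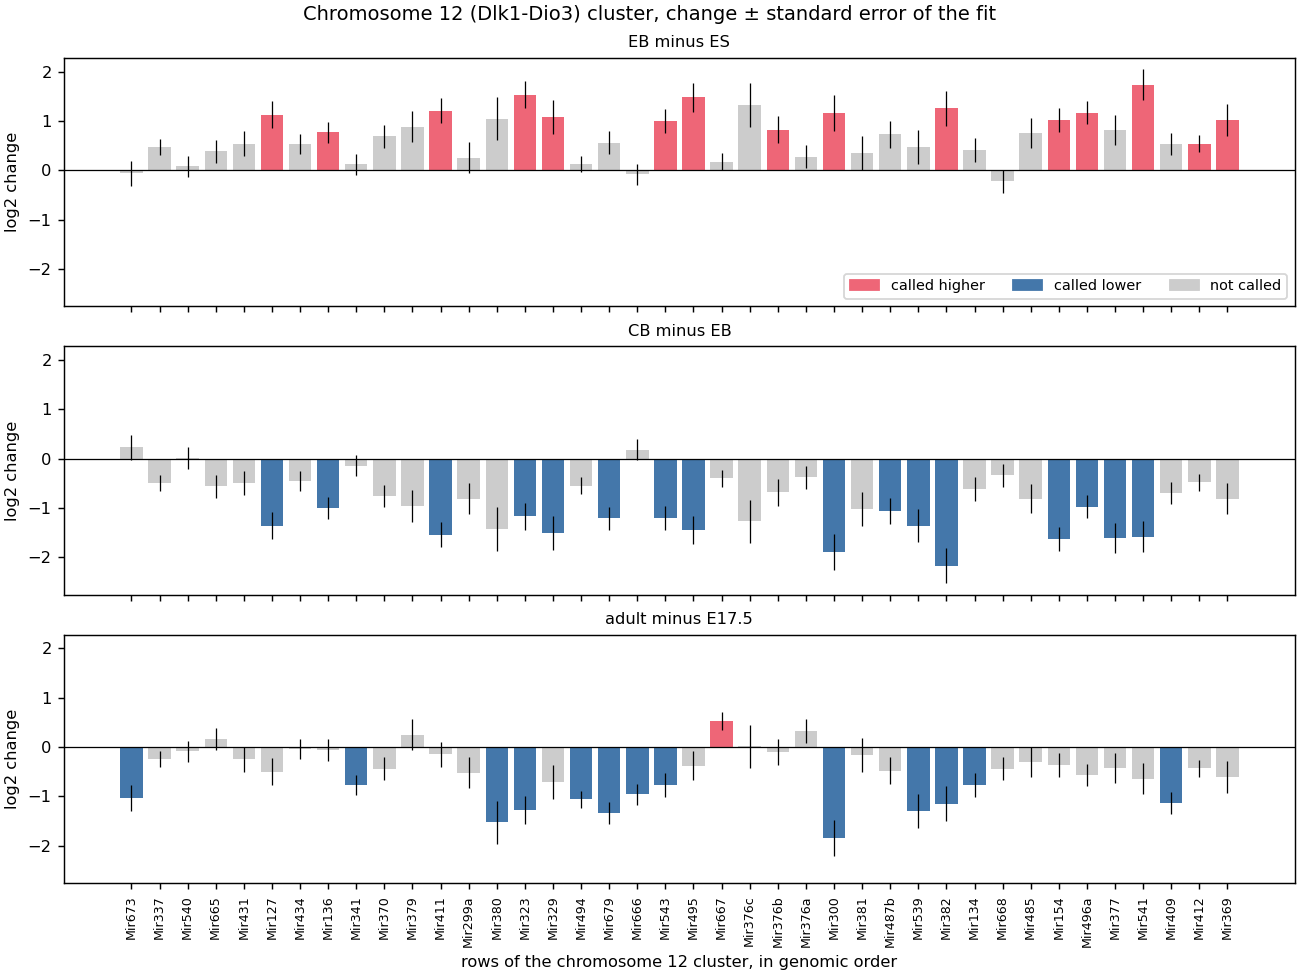
Change ± standard error of the fit (log2) for the 40 rows of the chromosome 12 cluster in genomic order, in EB minus ES, CB minus EB and adult minus E17.5; red bars are called higher, blue bars lower, grey bars not called. The 15 red bars of the top panel and the 16 blue bars of the middle panel are spread along the whole cluster.

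Some of the other rows raised in EB belonged to the Mir15 and Mir130 families shown above. Mir15b, of the family that restrains the cell cycle, had 6.29 and 6.18 in EB, against 4.23 and 4.09 in ES cells, and 4.31 and 5.24 in CB. The EB arrays lay above both neighbours, and the rise over ES cells was 2.08 ± 0.26 (adjusted p = 0.000151). Its neighbour Mir16-2, with the same seed, rose by 1.39 ± 0.22, while Mir16-1, whose mature strand is the same, had 4.83 and 5.23 in EB, against 5.0 and 4.87 in ES cells. The condensin gene Smc4, which holds Mir15b and Mir16-2 in an intron, was high in both groups, with 9.87 and 10.02 in EB and 9.94 and 9.18 in ES cells (0.38 ± 0.52, adjusted p = 0.721). Mir130a had 4.85 and 5.36 in EB, against 2.84 and 3.35 in ES cells, a rise of 2.01 ± 0.29 (adjusted p = 0.000369). Mir301, with the same seed, rose by 1.75 ± 0.19 (adjusted p = 4.87e-05). Mir34a, whose gene the tumour suppressor p53 activates, rose by 1.16 ± 0.17 in EB and was higher by 0.77 ± 0.17 in CB than in ES cells. Its call in CB was lost when any of the 4 ES cell or CB arrays was left out. Mir15a, a further gene of the Mir15b family, had 7.15 and 7.82 in EB, against 5.92 and 5.67 in ES cells (1.69 ± 0.40, adjusted p = 0.0108), a call lost without ES replicate 2 or EB replicate 2. The 2 rows called lower in CB than in ES cells were Mir182 (-0.92 ± 0.17) and Mir3068 (-0.69 ± 0.17), and Mir182 had 3.12 and 3.43 in CB, against 4.23 and 4.17 in ES cells. The call of Mir182 was lost without CB replicate 1. That of Mir3068 was lost when any of the 4 ES cell or CB arrays was left out. The single row called lower in EB was Mir6516, with 7.49 and 8.06 in EB, against 9.14 and 8.52 in ES cells (-1.06 ± 0.30, adjusted p = 0.0259), a call lost without ES replicate 1 or EB replicate 1.

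The muscle microRNAs are transcribed in heart and skeletal muscle and act on growth, conduction and the choice of contractile proteins. Their 7 rows were Mir208a, Mir1a-1, Mir1a-2, Mir133a-1, Mir133a-2, Mir206 and Mir499. The row of Mir133b carried a second symbol, and no row carried only Mir208b. Mir208a, which lies in an intron of the alpha myosin heavy chain gene Myh6, had 4.04 and 3.99 in ES cells, 3.92 and 4.06 in EB and 6.41 and 5.99 in CB. Both CB arrays lay above the 4 earlier ones. In hearts it had 6.77 and 5.77 at E17.5, 10.08 and 8.38 at P1 and 6.36 and 6.0 in adults. Both P1 arrays lay more than 1 unit above every other array, and CB, E17.5 and adult hearts overlapped.

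Mir208a rose in CB by 2.20 ± 0.45 over EB (adjusted p = 0.00719; 0.0719 without CB replicate 1). It was higher at P1 than at E17.5 by 2.96 ± 0.45 (adjusted p = 0.00253) and lower in adult than in P1 hearts by 3.05 ± 0.45 (adjusted p = 0.000316), and these 2 calls held when any single array was left out. The adult and E17.5 means differed by -0.09 ± 0.45. Its host Myh6 had 12.36 and 11.95 in CB, against 5.26 and 5.27 in EB, a rise of 6.89 ± 0.21. Myh6 had 13.22 and 12.80 at P1, against 12.33 and 11.95 at E17.5 (0.87 ± 0.21, adjusted p = 0.0376), and 12.71 and 12.51 in adults (-0.40 ± 0.21 against P1, adjusted p = 0.179). Across the 6 group means the 2 rows correlated at r = 0.84, a description, since both rows were read on the same arrays. Myh7, the beta myosin heavy chain gene next to Myh6, had 8.0 and 6.92 in adults, against 12.76 and 12.64 at P1.

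Mir1a-1 and Mir133a-2, which lie next to each other on chromosome 2, were both highest at P1. Mir1a-1 had 4.94 and 3.75 at E17.5, 7.01 and 6.62 at P1 and 2.93 and 2.97 in adults, while ES cells, EB and CB lay between 2.51 and 3.41. P1 arrays lay above and adult arrays below both E17.5 arrays. The rise at P1 over E17.5 was 2.47 ± 0.31 (adjusted p = 0.000738) and the fall in adult below P1 hearts 3.87 ± 0.31 (adjusted p = 5.75e-06), the largest fall of any microRNA row in that comparison. Mir133a-2 had 5.15 and 4.48 at P1, against 3.83 and 3.45 at E17.5 (1.17 ± 0.24, adjusted p = 0.0164; 0.172 without E17.5 replicate 2, and lost without E17.5 replicate 1 too), and 3.30 and 3.33 in adults.

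The second copies, Mir1a-2 and Mir133a-1, were not called between heart stages. Mir1a-2 had 4.08 and 3.15 at E17.5, 3.79 and 3.15 at P1 and 3.41 and 3.06 in adults, groups that overlapped, and lay between 2.15 and 2.46 in the 6 culture arrays. It was lower in CB than in E17.5 hearts by 1.17 ± 0.28 (adjusted p = 0.0102), as was Mir1a-1 by 1.17 ± 0.31 (adjusted p = 0.0171). Both of these calls were lost without E17.5 replicate 1 (adjusted p = 0.117 and 0.167) and without CB replicate 2. Mir133a-1 had 4.49 and 4.07 in CB, against 3.70 and 3.52 in EB, and in hearts 4.55 and 4.05 at E17.5, 5.17 and 3.90 at P1 and 4.83 and 4.83 in adults. It was called in no comparison. These 2 genes lie in the ubiquitin ligase gene Mib1, on the other strand, whose row correlated with them at -0.25 and -0.54 over the 6 group means.

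Mir499, in an intron of the myosin heavy chain gene Myh7b, had 4.95 and 4.15 at P1, against 3.67 and 3.86 at E17.5, and was called in no comparison. Myh7b itself had 7.16 and 6.69 in adults, against 9.09 and 8.55 at P1, a fall of 1.89 ± 0.24 (adjusted p = 0.000119). Mir206, a microRNA of skeletal muscle with the seed printed above, stayed between 2.09 and 2.38 in all 12 arrays, and the median of 6 skeletal muscle markers lay between 5.04 and 5.34 in every group. The P1 arrays differed from each other: 16 microRNA rows were higher by at least 1 unit in P1 replicate 1 and none in P1 replicate 2. The median of the smooth muscle and fibroblast markers was 11.11 in P1 replicate 1 and 9.69 in P1 replicate 2, and that of the cardiomyocyte markers 13.05 and 12.80. Their part in the P1 results was not tested. The number of microRNA rows called at P1 against E17.5, 9 over all arrays, depended on single arrays. It rose without P1 replicate 1, with the balance turned to more lower than higher rows, and fell without either E17.5 array. The share of all rows called moved in the same direction in each of these cases.

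**Figure D4:**
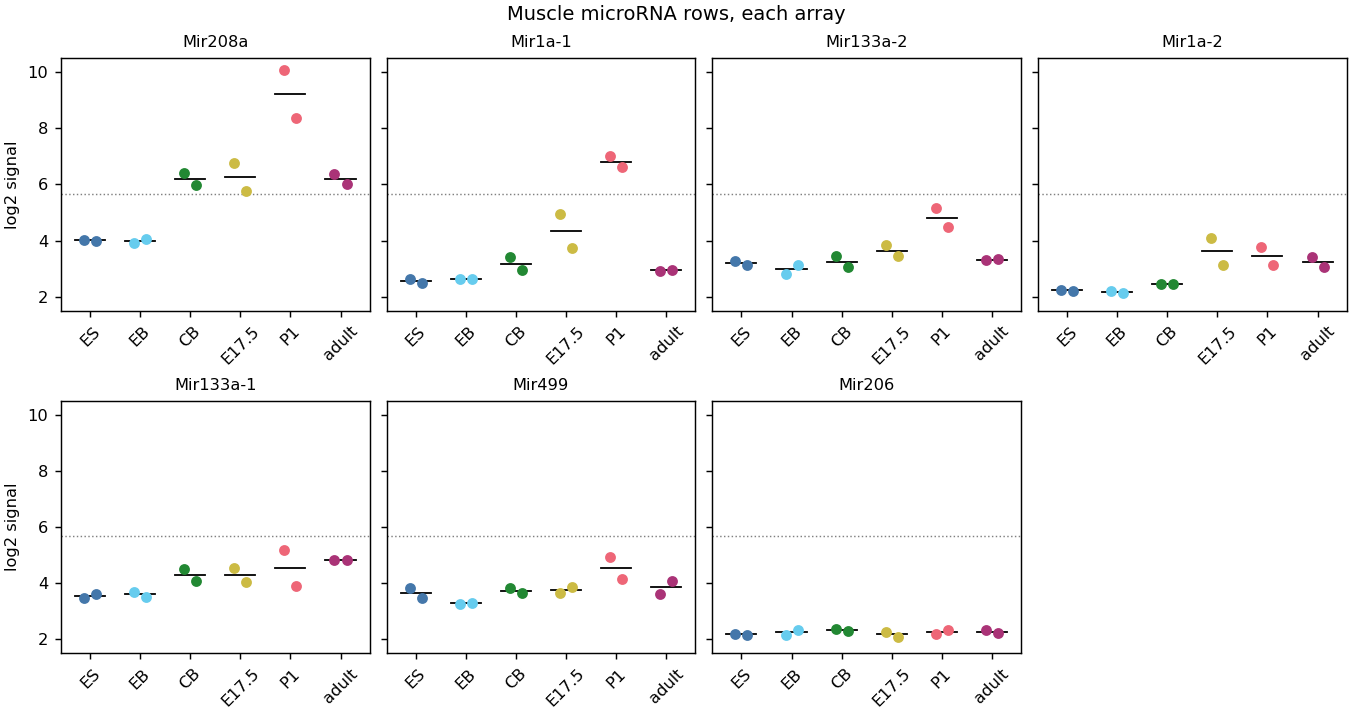
Log2 signal of each array (points) and group mean (bars) for the 7 muscle microRNA rows, with the series median of 5.67 as a dotted line. Mir208a, Mir1a-1 and Mir133a-2 are highest in both P1 hearts, Mir1a-2 and Mir133a-1 overlap between heart stages, and Mir206 is flat between 2.09 and 2.38.

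Further rows were raised in P1 hearts. Mir143, a microRNA of smooth muscle, had 7.67 and 7.16 at P1, against 5.65 and 6.41 at E17.5, and 5.10 and 5.23 in adults. The P1 arrays lay above the others, with a rise of 1.38 ± 0.31 over E17.5 (adjusted p = 0.0245; 0.262 without E17.5 replicate 1) and a fall of 2.25 ± 0.31 in adults below P1. Its cluster partner Mir145a had 7.85 and 7.70 at P1, against 6.44 and 6.44 at E17.5 (1.34 ± 0.28, adjusted p = 0.0178), and 7.14 and 6.79 in adults. In culture Mir145a had 5.58 and 5.20 in CB, against 4.07 and 3.47 in ES cells, a rise of 1.62 ± 0.28. Mir378a had 6.29 and 6.26 at P1, against 5.16 and 5.19 at E17.5, a rise of 1.1 ± 0.22 (adjusted p = 0.0124), and changed by -1.53 ± 0.22 in adult against P1 hearts. Its host Ppargc1b, a coactivator of mitochondrial genes, was also higher at P1 than at E17.5, by 1.41 ± 0.24, and lower in adults than at P1 by 0.75 ± 0.24. Mir23a rose by 1.09 ± 0.21 at P1, with 6.80 and 6.79, against 5.49 and 5.92 at E17.5. These 4 calls were each lost without E17.5 replicate 1. Those of Mir145a and Mir378a were also lost without E17.5 replicate 2 or P1 replicate 2, and that of Mir143 without P1 replicate 1. The 2 rows called lower at P1 were Mir15b (-1.54 ± 0.26) and Mirlet7f-1 (-1.52 ± 0.28), and both calls were lost without E17.5 replicate 1. That of Mirlet7f-1 was lost without E17.5 replicate 2 too.

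The let-7 microRNAs promote differentiation, and Lin28a and Lin28b block the maturing of their precursors. With Mir98 they form the largest seed group here, 9 genes whose sequence was at hand and reads GAGGUAG, and 3 of the 9 let-7 rows were called higher in EB, beside 11.9% of all rows called higher there. In EB Mirlet7f-1 had 6.04 and 6.29, against 4.58 and 4.66 in ES cells, a rise of 1.54 ± 0.28 (adjusted p = 0.0018). Its cluster neighbours Mirlet7d and Mirlet7a-1 rose by 1.14 ± 0.34 and 0.54 ± 0.18, calls lost without any single ES cell or EB array. The other 6 rows of the let-7 symbols, Mirlet7a-2, Mirlet7c-1, Mirlet7e, Mirlet7f-2, Mirlet7g and Mirlet7i, were not called in EB. In hearts Mirlet7f-1 had 6.05 and 5.80 at E17.5, 4.94 and 3.87 at P1 and 4.06 and 4.17 in adults, and adult hearts were lower than E17.5 hearts by 1.81 ± 0.28 (adjusted p = 0.000302). Mirlet7i was lower in adult than in E17.5 hearts by 0.73 ± 0.23 and Mirlet7a-2 higher by 0.58 ± 0.19, and each of these calls was lost without any of several single arrays. Mir98, which shares the seed, was called in no comparison.

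Mirlet7c-1 set hearts apart from culture. It lies with Mir99a in the host gene Mir99ahg on chromosome 16. Mirlet7c-1 had 2.65 and 2.62 in CB, against 4.60 and 4.66 in E17.5 hearts, and Mir99a 4.05 and 3.56, against 6.12 and 6.26. The CB arrays lay well below the E17.5 arrays, by 2.00 ± 0.45 (adjusted p = 0.00665; 0.0504 without CB replicate 2) and by 2.38 ± 0.47 (adjusted p = 0.0031). Of the 4 rows of Mir99ahg 3 were called lower in CB than in E17.5 hearts, with changes of -1.82, -2.41 and -3.46, and the remaining row lay between 4.58 and 5.29 in all arrays. At P1 both microRNA rows differed between replicates, with 5.94 and 3.91 for Mirlet7c-1 and 6.91 and 4.95 for Mir99a. Mir125b-2, the third microRNA of that host gene, stayed between 2.20 and 2.71 in all arrays.

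Lin28a, fixed in a list of 21 genes for making or using microRNAs, had 9.23 and 9.26 in CB, against 5.72 and 5.58 in E17.5 hearts, a difference of 3.60 ± 0.18 (adjusted p = 1.64e-07). Lin28b rose in EB by 1.39 ± 0.21 and was lower in CB than in EB by 2.07 ± 0.21. Of the 21 genes 4 were higher in EB than in ES cells and none lower, near the 20.3% of all rows called there: Dicer1 by 0.94 ± 0.19, Prkra (a Dicer partner) by 1.08 ± 0.20, Lin28b, and Dis3l2, which degrades let-7 precursors marked by Lin28, by 0.80 ± 0.16. In CB 3 were lower than in EB, and none was called between CB and ES cells. In adult hearts 2 were higher and 8 lower than at E17.5, beside 36.3% of all rows called there. Dgcr8 had 6.09 and 6.51 in adults, against 7.93 and 7.78 at E17.5, a fall of 1.56 ± 0.20, and Ran fell by 2.05 ± 0.17. The Argonaute gene Ago4 had 6.98 and 6.25, against 5.01 and 4.93, a rise of 1.64 ± 0.28. The helicase gene Ddx17, which assists Drosha, fell by 1.97 ± 0.21.

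In adult hearts 16 microRNA rows were higher than at P1. Mir505 had 8.70 and 8.89 in adults, against 6.03 and 5.4 at P1 and 5.33 and 5.13 at E17.5. The adult arrays lay more than 2 units above every other array of the series, by 3.08 ± 0.23 over P1 (adjusted p = 2.82e-06) and 3.56 ± 0.23 over E17.5 (adjusted p = 4.76e-07). Mir568 had 8.22 and 8.46 in adults, against 6.49 and 4.06 at P1 and 5.21 and 4.75 at E17.5, with rises of 3.07 ± 0.53 and 3.36 ± 0.53. Mir1839 had 5.82 and 6.01 in adults, against 3.92 and 3.84 at P1, a rise of 2.03 ± 0.21. Mir216b rose by 1.69 ± 0.16 over P1, with 4.70 and 4.82 in adults, against 3.02 and 3.13. Mir122, the abundant microRNA of liver, had 4.74 and 5.34 in adults, against 3.96 and 3.84 at P1 (1.14 ± 0.21, adjusted p = 0.0014), and Mir190b rose by 1.13 ± 0.19. The 5 liver and endoderm markers had medians of 5.03 in adult, 5.24 in P1 and 4.89 in E17.5 hearts. In adults 1 of them was called higher than at P1 and 1 higher than at E17.5, and none was called lower. Their part in the Mir122 result was not tested.

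Falls numbered 58. Mir690 had 2.71 and 3.95 in adults, against 7.22 and 4.92 at P1 and 6.25 and 5.18 at E17.5, while the 6 culture arrays lay between 2.17 and 2.97. Its arrays within each heart stage were more than 1 unit apart, and the fall of 2.74 ± 0.62 below P1 was lost without adult replicate 1 (adjusted p = 0.0657). Mir677 fell by 1.68 ± 0.18, with 6.08 and 6.24 in adults, against 7.95 and 7.72 at P1. Mir483 in the growth factor gene Igf2 had 5.77 and 6.14 in adults, against 7.14 and 7.36 at P1 (-1.30 ± 0.21). Igf2 itself had 9.67 and 11.45 in adults, against 11.65 and 12.05 at P1 (-1.29 ± 0.41). In culture the pair diverged, since Igf2 rose by 5.91 ± 0.41 in EB over ES cells while Mir483 changed by -0.01.

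The comparison of CB with E17.5 hearts sets cultured against developing heart tissue. Besides Mir99a and Mirlet7c-1, 4 of the 6 Mir181 rows were lower in CB. Mir181b-1 had 3.69 and 3.09 in CB, against 6.10 and 5.33 at E17.5 (-2.32 ± 0.35, adjusted p = 0.000483), and Mir181b-2 4.46 and 4.24, against 6.03 and 5.80 (-1.57 ± 0.36). Mir181 microRNAs are known from blood and vessel cells, and 1 of the 6 was called without CB replicate 2 or without E17.5 replicate 1, and 2 without E17.5 replicate 2. Mir126a, the endothelial microRNA in an intron of Egfl7, had 3.02 and 2.51 in CB, against 5.01 and 3.87 at E17.5 (-1.67 ± 0.38, adjusted p = 0.00725). All 6 endothelial markers were lower in CB, with a median of 5.28, against 9.07 at E17.5, and their part in these results was not tested. Egfl7 was lower by 2.01 ± 0.29, and over the 6 group means Mir126a and Egfl7 correlated at r = 0.91. Mir490 had 3.51 and 3.18 in CB, against 5.78 and 5.24 at E17.5 (-2.16 ± 0.45, adjusted p = 0.00425; 0.0517 without E17.5 replicate 1). It lies in the muscarinic receptor gene Chrm2, which was lower by 2.92 ± 0.39, and the pair correlated at r = 0.98 over the 6 group means.

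How far microRNA rows follow the genes that contain them was read from all pairs in which a precursor lies within the span of a measured gene on the same strand, 97 pairs with 96 rows. In EB against ES cells 8 of these rows were called, and in 6 of them the enclosing gene was called in the same direction and in none in the opposite one. In CB against EB the numbers were 9 called and 6 in the same direction, and in CB against E17.5 hearts 8 and 6. In adult hearts against P1, 22 rows were called, with 7 enclosing genes in the same direction and 4 in the opposite one, and against E17.5 20, 7 and 2. The enclosing genes were called in 12 to 41 of the 97 pairs over the 7 comparisons. They were called in 34 pairs in EB against ES cells, 20 in CB against EB and 31 in CB against E17.5 hearts. For adult hearts the numbers were 34 against P1 and 41 against E17.5.

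Mir335 and its host Mest, an imprinted gene, both fell in adults. Mir335 had 4.46 and 4.46 in adults, against 6.09 and 5.86 at E17.5 (-1.51 ± 0.18, adjusted p = 4.85e-05), and Mest 7.27 and 7.70, against 12.68 and 12.58 (-5.14 ± 0.24). Mir218-1 rose by 1.46 ± 0.26 in EB over ES cells along with its host, the guidance gene Slit2, which rose by 3.05 ± 0.35. Mir128-1 and its host R3hdm1 were called in opposite directions. In adults against E17.5 the microRNA row fell by 1.08 ± 0.26 while R3hdm1 rose by 1.34 ± 0.19. Over the 6 group means this pair correlated at r = -0.8, the lowest of 35 listed pairs of a microRNA row and its host. The highest of them was 0.98, for Mir26b and Ctdsp1, and Mir483 and Igf2 had 0.06.

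**Figure D5:**
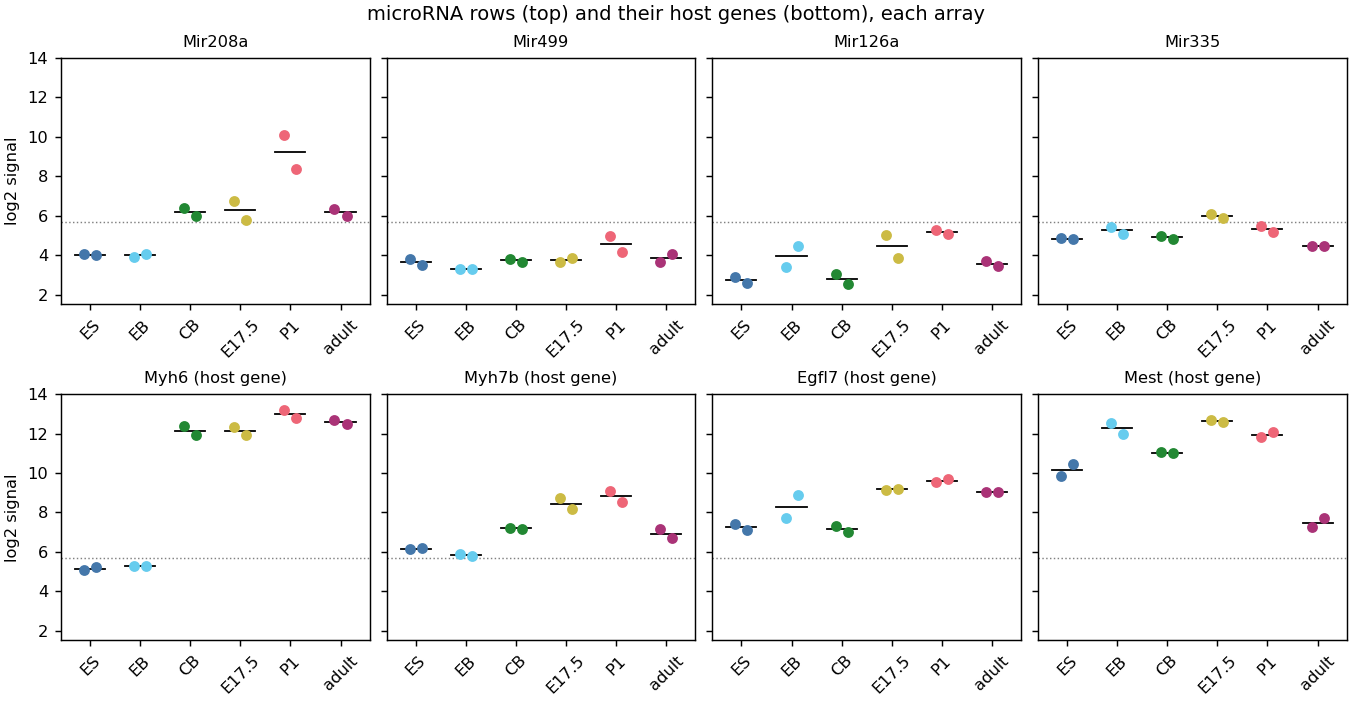
Log2 signal of each array (points) and group mean (bars) for 4 microRNA rows (top) and the genes that contain them (bottom), with the series median of 5.67 as a dotted line. Mir208a peaks at P1 while Myh6 stays at 11.95 or more from CB on, and Mir335 and Mest are both lowest in adult hearts.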

How the data were processed

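Per the labels' protocols, total RNA was extracted with TRIzol, ribosomal RNA was reduced, and cDNA was amplified, fragmented, biotin-labelled and hybridized to Affymetrix mouse gene arrays. The authors' deposited values are log2 signals made with RMA in Affymetrix Power Tools, per the submitters' processing notes; they were used without further normalization. Of 35556 gene-level rows, 21789 had 1 platform symbol, 1621 several and 12146 none. Group means were estimated over these 21789 by lmFit and eBayes (limma 3.58.1, R 4.3.3; 12 arrays, 6 group means, 6 residual and 5.8 prior degrees of freedom; no filter on level, so all 305 members were tested), with Benjamini-Hochberg adjustment within each of 7 comparisons and calls at an adjusted p under 0.05. Besides the Mir302, muscle and let-7 rows, the rule named per comparison the 6 largest rises and falls among called rows whose arrays did not overlap; family members beside them were chosen after their values were seen. Clusters join precursors up to 100 kb apart. The members, families and lists were chosen with earlier results of these data known. On simulated data for P1 minus E17.5 over 21789 rows, 50 rows each were given changes of 0.5, 1, 2 and 3. Of these changes 0% of 0.5, 50% of 1 and 100% of 2 were found, with 5 false calls. In the real comparison 1048 rows were called, more than were changed here, and the adjustment depends on that number. The simulated shares need not hold there. Exon-level log2 values were deposited too; 300 of the 305 rows had the same values there (within 0.0001).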

Additional observations from a re-analysis of the deposited data

How the results depend on the processing

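With the replicate number as a block the microRNA rows called were 38 in EB minus ES, 35 in CB minus EB, 11 in CB minus ES, 9 in P1 minus E17.5, 68 in adult minus P1, 59 in adult minus E17.5 and 36 in CB minus E17.5, against 42, 35, 11, 9, 74, 64 and 38 without it. The numbers did not pair the samples, since same-numbered deviations correlated at -0.17 to 0.32 (median -0.05) over 15 pairs of groups. Testing only rows at or above the series median in a group left 18 in EB minus ES, 23 in CB minus EB, 4 in CB minus ES and 20 in CB minus E17.5; that filter removes most microRNA rows, all of the Mir302 and Mir367 cluster among them. A change of at least 1 as well left 6 in CB minus ES, 32 in adult minus P1, 32 in adult minus E17.5 and 24 in CB minus E17.5. Leaving out 1 array at a time gave 18 to 53 in EB minus ES, 13 to 47 in CB minus EB, 5 to 17 in CB minus ES, 2 to 25 in P1 minus E17.5, 44 to 81 in adult minus P1, 41 to 76 in adult minus E17.5 and 22 to 47 in CB minus E17.5. Where this leaves a group with 1 array, that array is assumed to vary like the others. The share of all rows called also moved with the array left out. The arrays that moved a count by over 1.5 times were ES replicates 1 and 2 and EB replicate 1 in EB minus ES, both CB arrays in CB minus EB, both ES cell and both P1 arrays and CB replicate 1 in CB minus ES, both E17.5 arrays and P1 replicate 1 in P1 minus E17.5, adult replicate 2 in adult minus P1, E17.5 replicate 2 in adult minus E17.5, and CB replicate 2 and E17.5 replicate 1 in CB minus E17.5. With quantile-normalized arrays, a prior that follows intensity, or a single row per symbol, limma kept each count within 1.5 times. Of 94 named calls 56 held in every setting, 38 were lost in some, 37 of them only when an array was left out (the exception is Mirlet7a-1), and none reversed. The exon-level alternative was not run, because its annotation gave none of these symbols. Signals were not tested against background, so the order of the dimmest rows is uncertain, and the number of arrays limits what can be called.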
